A study of Mus musculus with 6 samples.

Results

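Respiratory complex I was examined through the genes whose symbol starts with Nduf, a name that stands for NADH dehydrogenase (ubiquinone). Of 45101 probe sets on the array, 88 carried a single gene symbol of this kind in the platform annotation, and they represented 44 of the 18193 genes with a single symbol. Each gene was represented by its probe set of the highest mean signal over the 6 arrays, so the rule used name and level and not genotype. The family itself was chosen with earlier results of these data known. The RNA came from microdissected thyroid of mice at postnatal day 15, 3 samples heterozygous for Slc26a4 and 3 knockout samples. Slc26a4 encodes pendrin, an anion exchanger of the thyroid follicular cell, and the comparison asked which transcripts differ when it is lost. All samples carried at least 1 altered Slc26a4 allele, since heterozygotes served as controls. Neither the altered part of the gene nor the strain, sex or number of animals per RNA is given in the sources used here. Arrays are named by genotype and the sample number of their titles, heterozygous 1, 3 and 5 and knockout 2, 4 and 6.

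Complex I is the entry point of electrons from NADH into the mitochondrial respiratory chain. It passes them through a flavin and a chain of iron-sulphur clusters to ubiquinone and pumps protons across the inner membrane. The N module oxidises NADH, the Q module reduces ubiquinone, and the proximal and distal parts of the membrane arm move protons. The complex is built in stages by assembly factors that are absent from the finished enzyme. Its subunits are abundant in tissues rich in mitochondria, such as heart, muscle and brown fat, and in epithelia that drive ion transport by the sodium pump, as thyroid follicular cells do to take up iodide. Of the 44 members, 34 encode subunits, 8 encode assembly factors, and Ndufa4 and its paralog Ndufa4l2 bear the name of the family although Ndufa4 is a subunit of complex IV. The 10 further probe sets shared by several symbols were left out, so Ndufs6 and Ndufa11 were not analysed here, and neither were the subunits encoded by mitochondrial DNA.

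The single probe set of Slc26a4 itself read 4.997, 4.59 and 12.1 on heterozygous 1, 3 and 5 and 7.29, 2.10 and 15.7 on knockout 2, 4 and 6, under the background of 22.9 set by control probe sets for bacterial transcripts on all arrays. It was not tested and gives no check of the genotype labels. The samples differed in the tissue dissected with the gland. Thyroglobulin (Tg) read between 11795 and 13805 on the 6 arrays and Ucp1, the uncoupling protein of brown fat, between 9211 and 11977, so all samples held both thyroid and brown fat RNA. Pth, the parathyroid hormone gene, read 165.2 on heterozygous 1 and 2789 on knockout 6 against 9702 to 11058 on the others. The summed signal of 10 measured thymocyte and T cell markers was 4461 on knockout 4 and at most 237.9 on the other arrays. Skeletal muscle markers summed to 7301 on knockout 6 and to 32758 on knockout 2. In such mixed tissue, fewer cells of a type and less RNA per cell cannot be told apart. No label states that the arrays of a genotype are separate animals. All p-values therefore rest on the spread between these 6 samples, part of which may be technical.

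No complex I transcript passed a test between Slc26a4 knockout and heterozygous thyroid, and the differences measured were small. Of the 44 members, 43 were bright enough to be tested, 26 with a higher and 17 with a lower knockout mean, and their median log2 difference was 0.023. Over all 27022 probe sets tested, 49.3% had a higher and 50.7% a lower knockout mean, with a median of -0.0021. No member passed (limma, adjusted p = 1 for all 43, against 0% of all probe sets called), and at an unadjusted p under 0.05 limma had 0 members against 0.511% of all probe sets, a background at which a list of this size yields few calls or none. The test of each probe set by its own variance also had 0 members at this unadjusted level, against 283 of all 27022 probe sets tested. No probe set on the array passed limma's adjusted threshold in either direction. The 3 knockout arrays overlapped the 3 heterozygous arrays for all 43 members, where 3.68% of all probe sets did not overlap. For the scaled signal of the chosen probe sets, the 95% interval lay within 1.5-fold in both directions for 40 of the 43. The exceptions were Ndufa4l2, Ndufaf6 and Ndufb1. These intervals concern the mixed tissue as a whole and do not bound a change within 1 cell type.

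**Figure D1:**
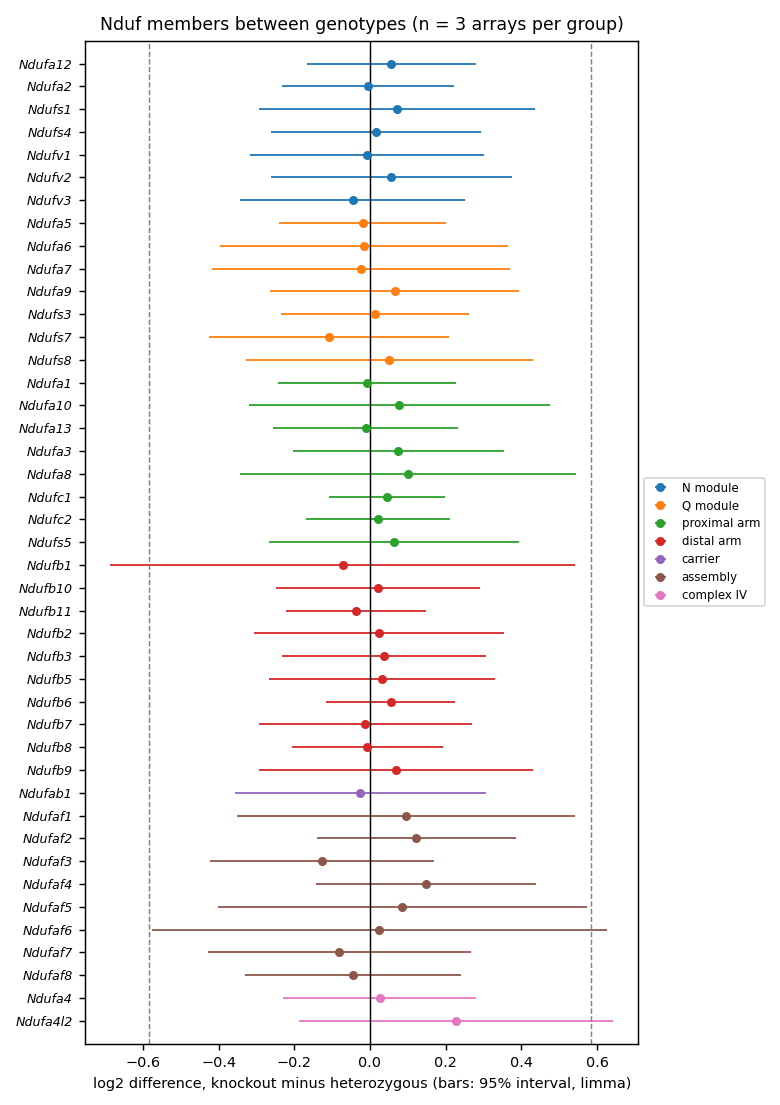
The log2 difference between knockout and heterozygous arrays (x axis, log2 scale) is plotted for the 43 tested members as points with 95% intervals from limma, coloured by role, with dashed lines at 1.5-fold in each direction (n = 3 arrays per group). All intervals include 0, and those of Ndufb1, Ndufaf6 and Ndufa4l2 reach past a dashed line.

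The sign of the small shift depended on single arrays. Without knockout 2 the knockout mean was higher for 41 of 43 members, with a median of 0.12, and without heterozygous 5 for 40 of 43, with a median of 0.11. Without heterozygous 3 it was lower for 35 of 43 (median -0.067), without knockout 6 for 32 of 43 (-0.036) and without knockout 4 for 26 of 43 (-0.028). Only the removal of heterozygous 1 left the split nearly as it was, at 27 higher and 16 lower (0.018). Weighting the arrays by their quality in limma gave 40 of 43 higher, with a median of 0.090. No member passed under any of these settings.

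**Figure D2:**
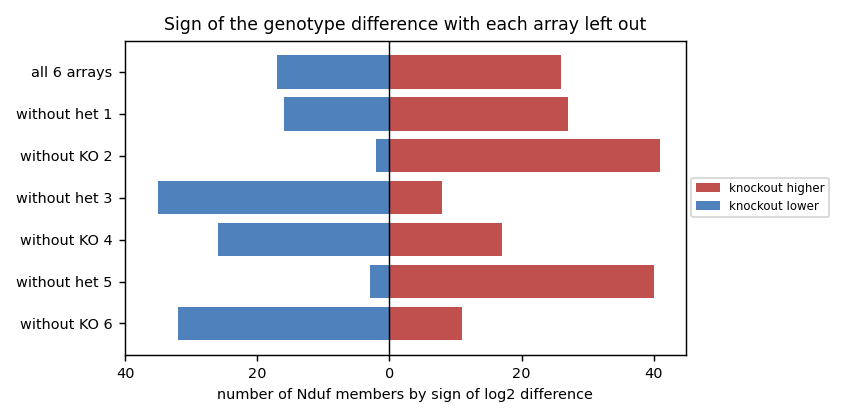
Bars count the 43 tested members with a higher (right) or lower (left) knockout mean, with all 6 arrays and with each array left out in turn. The split moves from 26 higher and 17 lower to 41 and 2 without knockout 2 and to 8 and 35 without heterozygous 3.

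In the N module, which takes electrons from NADH, 4 of 7 tested subunits had the higher knockout mean, and their differences lay between -0.046 and 0.072. Ndufv1, which binds NADH and the flavin, had signals of 6833, 5886 and 7849 on heterozygous 1, 3 and 5 and 5737, 7318 and 7388 on knockout 2, 4 and 6. The lowest and the highest of these 6 values were knockout 2 and heterozygous 5, and the genotypes overlapped almost fully. Its log2 difference was -0.0085 ± 0.13 (SE), with an interval of -0.32 to 0.30. Ndufs1, the large subunit that carries several iron-sulphur clusters, had signals of 5340.4, 4346 and 6457 on heterozygous 1, 3 and 5 and 4707, 6078 and 6081 on knockout 2, 4 and 6. Here heterozygous 3 was lowest and heterozygous 5 highest, so both ends of the range were controls, and the log2 difference was 0.072 ± 0.16 (SE). The other 5 were Ndufv2, which holds a further iron-sulphur cluster, and the accessory subunits Ndufv3, Ndufs4, Ndufa2 and Ndufa12.

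In the Q module, where ubiquinone is reduced, 3 of 7 tested subunits had the higher knockout mean. Ndufa9, an accessory subunit at the junction of both arms, had signals of 5079.6, 4891 and 6555 on heterozygous 1, 3 and 5 and 4817, 6140.4 and 6306 on knockout 2, 4 and 6. Knockout 2 was lowest and heterozygous 5 highest, and the difference was 0.065 ± 0.14 (SE) on the log2 scale. Ndufs3, a core subunit, was among the 4 members of the highest signal, with 8547, 7595 and 9419 in heterozygotes and 7541, 9334 and 8922 in knockouts. Its groups overlapped, and its log2 difference was 0.013. Ndufs7, which carries the cluster next to the ubiquinone site, had the most negative difference of all subunits. Its signals were 6822, 5813 and 8505 in heterozygotes and 5856, 6656 and 6919.8 in knockouts. Heterozygous 5 lay above all other arrays, and heterozygous 3 below all of them. The log2 difference of Ndufs7 was -0.11 ± 0.14 (SE), with an interval of -0.42 to 0.21 (limma, unadjusted p = 0.458, adjusted p = 1). A dimmer probe set of Ndufs7, with a mean signal of 2094, leaned the other way, with a log2 difference of 0.068. With the probe sets of the gene averaged, the difference was -0.019. Ndufs8, Ndufa5, Ndufa6 and Ndufa7 differed by -0.024 to 0.051.

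In the proximal part of the membrane arm 6 of 8 subunits had the higher knockout mean, with a median of 0.054, and in the distal part 6 of 10, with a median of 0.022. Ndufa8, a proximal subunit held together by disulphides, varied widely between arrays, with 3373, 2909 and 4351 in heterozygotes and 2901, 4069.9 and 4459 in knockouts. Knockout 2 and heterozygous 3 were both low and knockout 6 and heterozygous 5 both high, so the spread ran within each genotype. Its log2 difference was 0.10 ± 0.19 (SE). The probe set of Ndufc1, a small proximal subunit, had the highest signals of the family and varied little, with 11846, 11683 and 12107 in heterozygotes and 11383, 12987 and 12445 in knockouts and a log2 difference of 0.045 ± 0.067 (SE). Among distal subunits, Ndufb6 read 7242 ± 252 and 7529 ± 491 in heterozygotes and knockouts (mean ± SD, n = 3 arrays), with a log2 difference of 0.055. Ndufb10 read 8691 ± 778 and 8857 ± 1245 with a difference of 0.021, and Ndufb11 read 10410.3 ± 875 and 10133 ± 535 with a difference of -0.037. Ndufb11 was the only subunit with its highest value on heterozygous 1, at 11360. The probe sets of Ndufb1 and Ndufb4 were dim. Ndufb1 read 50.7, 65.2 and 51.7 in heterozygotes and 33.5, 65.2 and 62.3 in knockouts, a log2 difference of -0.072. Ndufb4 read between 6.62 and 20.3, under the background of 22.9 on all 6 arrays, and it was not tested. Another 2 probe sets carry Ndufb4 together with further symbols and were left out by the rule, so the dim probe set does not show that the transcript is rare. Ndufab1, the mitochondrial acyl carrier protein, an accessory subunit bound at the Q module and at the distal membrane arm, read 5930.3 ± 807 and 5851 ± 981, a log2 difference of -0.025.

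Of the 4 members of smallest p, 3 were assembly factors (Ndufaf4, Ndufaf2 and Ndufaf3), and none passed. Ndufaf4, which acts early in building the Q module together with Ndufaf3, had signals of 1626, 1435 and 1845 on heterozygous 1, 3 and 5 and 1616, 1883 and 1934 on knockout 2, 4 and 6. Knockout 4 and knockout 6 lay above all heterozygous arrays and knockout 2 did not. The log2 difference was 0.15 ± 0.13 (SE), with an interval of -0.14 to 0.44 (limma, unadjusted p = 0.272, adjusted p = 1). Ndufaf3 itself leaned the other way, with 745, 763 and 829 in heterozygotes and 639.9, 798 and 704 in knockouts and -0.13 ± 0.13 (SE) on the log2 scale (limma, unadjusted p = 0.35, adjusted p = 1). Ndufaf2, a paralog of the subunit Ndufa12 that helps to add the N module, read 1089, 1132 and 1231 in heterozygotes and 1130.2, 1299 and 1339 in knockouts, a difference of 0.12 ± 0.11 (SE). Again 2 knockout arrays lay above the controls and the remaining one within them. Ndufaf7, a methyltransferase, differed by -0.082 and Ndufaf8, the partner of Ndufaf5, by -0.045. Ndufaf5, which hydroxylates Ndufs7, and Ndufaf6 had the widest spread among members of this group. Ndufaf5 read 657, 496 and 769 in heterozygotes and 534, 673 and 837 in knockouts, and Ndufaf6 read 343, 315 and 479 in heterozygotes and 259, 424 and 497 in knockouts. For Ndufaf6 knockout 2 was the lowest and knockout 6 the highest of all arrays, so the knockouts alone spanned the whole range. Their log2 differences were 0.085 and 0.025. Ndufaf1, a member of the assembly complex that also holds Ecsit and Acad9, differed by 0.10.

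Ndufa4, the complex IV subunit named in the family, and its paralog Ndufa4l2 both had the higher knockout mean. Ndufa4 read 7077, 6577 and 7941 in heterozygotes and 6299, 7876 and 7852 in knockouts, a log2 difference of 0.025 ± 0.11 (SE), and followed the pattern of the complex I subunits. Ndufa4l2, known as a target of the hypoxia response, was dim, with 121, 156 and 129 in heterozygotes and 150.4, 156 and 175 in knockouts. The 3 knockout values lay close together, from 150.4 to 175, with 1 heterozygous array among them. The interval of its log2 difference, 0.23 ± 0.18 (SE), ran from -0.19 to 0.64, and its p was the smallest of all members (limma, unadjusted p = 0.244, adjusted p = 1). It was the single member whose difference between genotypes exceeded the range of the knockout arrays.

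Samples of the same genotype differed from each other in these transcripts more than the genotypes did. Each member was expressed as its deviation from its own mean over the 6 arrays on the log2 scale, and the median deviation over the 43 members was -0.034, -0.17 and 0.19 on heterozygous 1, 3 and 5 and -0.20, 0.10 and 0.12 on knockout 2, 4 and 6. Heterozygous 5 held the highest value of 25 members, knockout 6 of 11 and knockout 4 of 5, whereas knockout 2 held the lowest value of 24 and heterozygous 3 of 17. On knockout 2 a single member, Ndufa4l2, lay above its own mean, and on knockout 4 41 of 43 did. Over all probe sets tested the highest value fell on heterozygous 5 for 15.0%, on knockout 6 for 27.8% and on knockout 4 for 11.6%, so the counts of members highest on knockouts 6 and 4 lay near these shares. The lowest value fell on knockout 2 for 16.8% and on heterozygous 3 for 11.2% of all probe sets. Within the heterozygotes, 41 of 43 members were higher on number 5 than on number 3, by a median of 1.28-fold, where 43.6% of all probe sets were. Within the knockouts all 43 were higher on number 6 than on number 2, by a median of 1.23-fold, against 53.1% of all probe sets, and all 43 were higher on number 4 than on number 2 (1.21-fold, 46.1%). The range within heterozygotes exceeded the difference between genotypes for all 43 members, and the range within knockouts did for 42. For 85.9% of all probe sets both ranges exceeded the difference, so an excess of spread over difference is common on these arrays. What the members had in common was which arrays were low and which were high. In the order of the sample numbers, 14, 1 and 3 of 43 members lay above their own mean on numbers 1, 2 and 3. On numbers 4, 5 and 6 the counts were 41, 39 and 40. The genotypes alternate in this order, and what the numbers stand for is not given. The part of an order of dissection or processing was not tested.

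**Figure D3:**
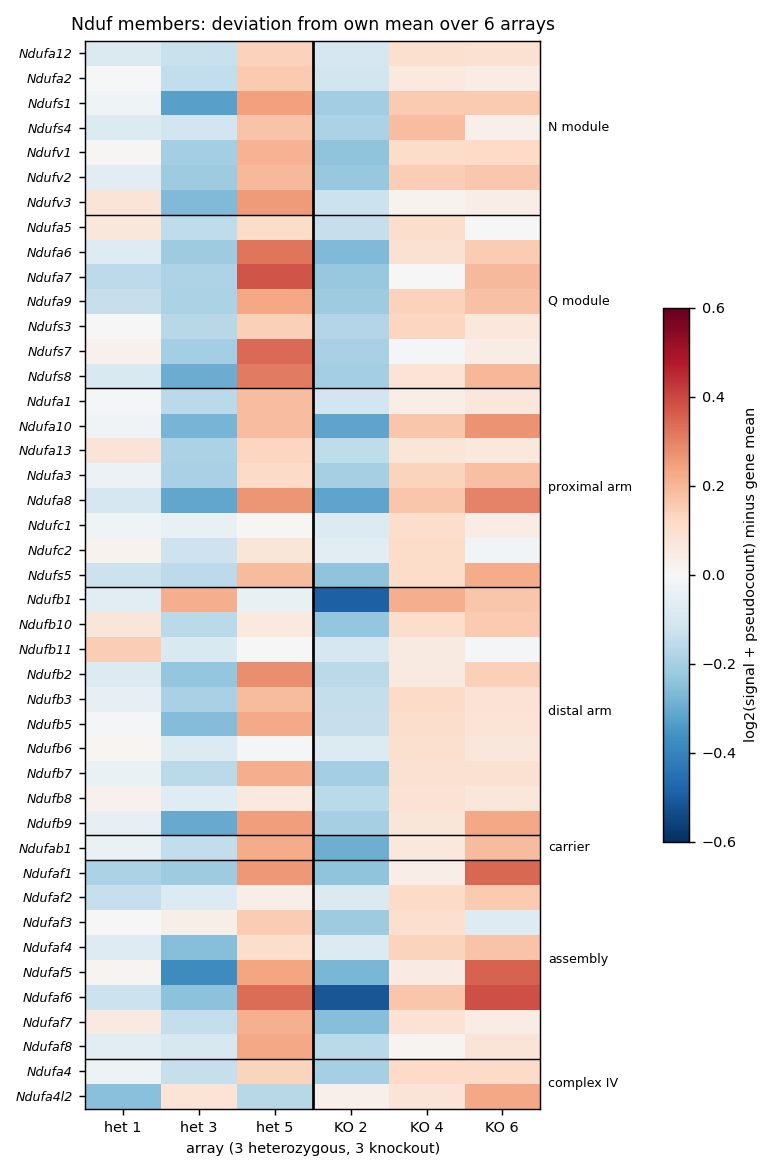
The colour of each cell is a member's log2(signal + pseudocount) on 1 array minus its mean over the 6 arrays, for the 43 tested members (rows, by role) on 3 heterozygous and 3 knockout arrays (columns). Heterozygous 3 and knockout 2 are mostly blue (3 and 1 of 43 members above their own mean), and heterozygous 5, knockout 4 and knockout 6 mostly red (39, 41 and 40 of 43).

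The array pattern ran through all modules of complex I. On knockout 2 the median deviation was -0.19 for the N module, -0.21 for the Q module, -0.18 and -0.16 for the proximal and distal membrane arm and -0.23 for the assembly factors. On heterozygous 5 the same lists stood at 0.19, 0.31, 0.16, 0.13 and 0.22. Assembly factors outside the Nduf family, 11 of 12 listed genes measured, had medians of -0.19, -0.29 and 0.32 on heterozygous 1, 3 and 5 and -0.27, 0.14 and 0.16 on knockout 2, 4 and 6. Of these 11, 8 had the higher knockout mean and none passed (limma). Tmem186 (849 ± 201 and 1011 ± 222, log2 difference 0.25) and Nubpl, an iron-sulphur cluster carrier for complex I (1109.7 ± 165 and 1265 ± 221, 0.18), had the smallest p of that list.

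Other parts of the respiratory chain varied in the same arrays. The median deviation of complex II, the succinate dehydrogenase, was -0.032, -0.22 and 0.13 on heterozygous 1, 3 and 5 and -0.28, 0.15 and 0.21 on knockout 2, 4 and 6. For complex III it was -0.043, -0.21 and 0.19 on heterozygous 1, 3 and 5 and -0.20, 0.14 and 0.20 on knockout 2, 4 and 6. Complex IV subunits spanned -0.15 on heterozygous 3 to 0.11 on knockout 4, and ATP synthase spanned -0.15 on knockout 2 to 0.090 on knockout 4. Between genotypes 4 of 4 tested genes of complex II, 6 of 9 of complex III, 4 of 6 of complex IV and 8 of 14 of ATP synthase had the higher knockout mean, with medians of 0.067, 0.025, 0.032 and 0.012, and no gene of these lists passed (limma). Whether complex I differed from the other complexes in these respects was not tested.

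Among 10 regulators of mitochondrial biogenesis, 6 had the higher knockout mean, with a median of 0.049. Ppargc1a, the coactivator that drives mitochondrial biogenesis in brown fat and muscle, had signals of 1620.5, 1656 and 1797 on heterozygous 1, 3 and 5 and 1521, 2219.6 and 2385 on knockout 2, 4 and 6. Like complex I it was lowest on knockout 2 and high on knockouts 4 and 6, whereas heterozygous 5 lay below both. On the log2 scale its knockout mean was higher by 0.24 ± 0.17 (SE) (limma, unadjusted p = 0.182, adjusted p = 1). Tfb1m, a methyltransferase of mitochondrial ribosomal RNA, was the single regulator whose groups did not overlap, with 364, 365 and 407 in heterozygotes and 331, 315 and 324 in knockouts. Their difference was -0.22 ± 0.13 (SE) on the log2 scale (limma, unadjusted p = 0.146, adjusted p = 1). Of all probe sets, 2.04% lay wholly lower in knockouts.

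Markers of fat, and in part of macrophages and fibroblasts, were low and high on many of the same arrays as complex I, and muscle markers were not. Brown fat markers, all 8 of 8 measured and none under background, had median deviations of -0.022, -0.22 and 0.018 on heterozygous 1, 3 and 5 and -0.23, 0.21 and 0.26 on knockout 2, 4 and 6. Their summed signal ranged over 31121 to 39648 in heterozygotes and 30464 to 42017 in knockouts, and 7 of 8 had the higher knockout mean. The order of the arrays was close to that of complex I except on heterozygous 5, where complex I was highest and brown fat near its mean. The brown fat list holds the complex IV isoforms Cox7a1 and Cox8b and the regulator Ppargc1a described above. It is therefore not independent of the respiratory genes. Cox7a1, a complex IV isoform of muscle and brown fat, had signals of 6386, 5209.96 and 7524 in heterozygotes and 5454, 7415 and 7543 in knockouts. Cidea, a lipid droplet protein of brown fat, had 5026, 4770.2 and 6526 in heterozygotes and 4091, 6722 and 6849 in knockouts. Both genes were low on heterozygous 3 and knockout 2 and high on heterozygous 5, knockout 4 and knockout 6. Another 2 of the 8, Elovl3, a fatty acid elongase, and Prdm16, a regulator of brown fat identity, ran against this pattern, highest on knockout 2 and lowest on heterozygous 5. Elovl3 had 214, 141 and 93.9 in heterozygotes and 285, 229 and 271 in knockouts. Prdm16 had 856, 822 and 789 in heterozygotes and 904, 858 and 883 in knockouts. Both genes were higher on all knockout arrays than on all heterozygous arrays, the only 2 of the 8 without overlap. Their log2 differences were 0.80 ± 0.27 (SE) and 0.099 ± 0.11 (SE), and neither gene passed (limma). Of all probe sets, 3.68% did not overlap in either direction. General fat cell markers, 6 of 8 measured and none under background, stood at -0.13, -0.30 and 0.15 on heterozygous 1, 3 and 5 and -0.15, 0.053 and 0.29 on knockout 2, 4 and 6, and summed to 27005 to 31656 in heterozygotes and 26744 to 34449 in knockouts. Skeletal muscle markers, 12 of 12 measured and none under background on average, ran otherwise, with 0.71, 0.22 and -0.057 on heterozygous 1, 3 and 5 and 0.64, -0.13 and -1.51 on knockout 2, 4 and 6. Thyroid follicular markers, 9 of 10 measured and none under background, varied less, with 0.15, -0.0018 and -0.12 on heterozygous 1, 3 and 5 and 0.10, -0.044 and -0.12 on knockout 2, 4 and 6 and sums of 37262 to 44952 in heterozygotes and 36946 to 43118 in knockouts. The arrays with the higher thyroid medians, heterozygous 1 and knockout 2, were not those with high complex I. In the order of the sample numbers the summed thyroid signal fell at each step, from 44952 on number 1 to 36946 on number 6. Macrophage markers, 7 of 7 measured and none under background, stood at -0.13, -0.022 and 0.13 on heterozygous 1, 3 and 5 and -0.16, 0.14 and 0.086 on knockout 2, 4 and 6, with sums of 16448 to 18279 in heterozygotes and 15683 to 18852 in knockouts. Like complex I they were low on knockout 2 and high on heterozygous 5 and knockout 4, but heterozygous 3 lay near their mean. Fibroblast markers, 8 of 8 measured and none under background, stood at -0.051, -0.027 and 0.032 on heterozygous 1, 3 and 5 and -0.16, 0.15 and 0.055 on knockout 2, 4 and 6, with sums of 47488 to 50219 in heterozygotes and 45042 to 54749 in knockouts. The thymocyte markers were high on knockout 4 alone and summed to 178 on knockout 6. The median deviation of the Nduf members was 0.10 on knockout 4 and 0.12 on knockout 6. The part of fat, macrophages, fibroblasts or thymocytes in the level of complex I was not tested.

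**Figure D4:**
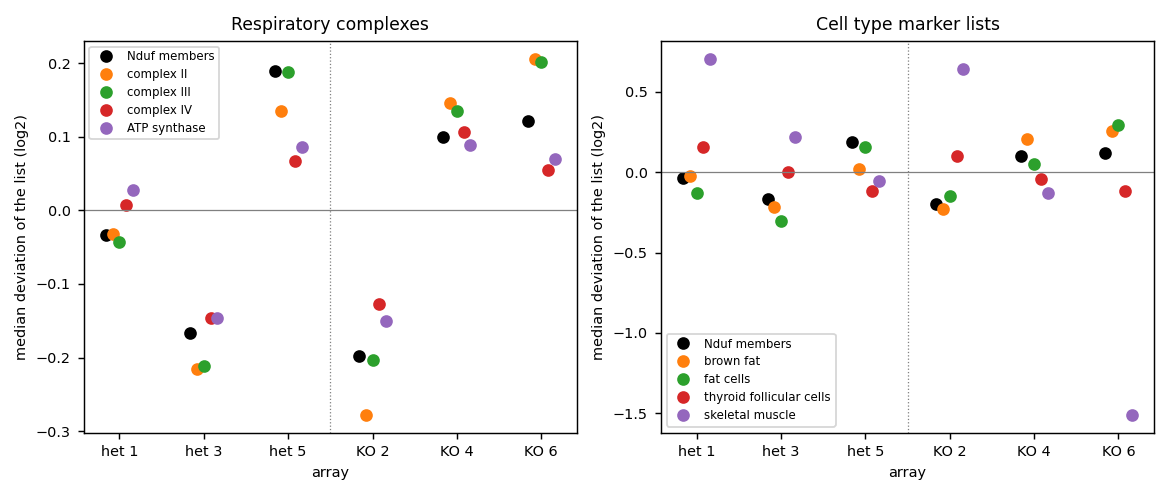
Points are the median deviation (log2) of a gene list on each of the 6 arrays, for the Nduf members with complexes II to V (left) and with markers of fat, thyroid and muscle (right, on another scale). The respiratory complexes lie below 0 on heterozygous 3 and knockout 2 together, and skeletal muscle falls to -1.51 on knockout 6 while the Nduf members stand at 0.12.

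Further probe sets of the members, dimmer than those chosen, were read on the same arrays and are no independent check of the samples. The 22 genes with more than 1 probe set had 44 further ones, of which 42 were tested, 24 with a higher and 18 with a lower knockout mean and a median log2 difference of 0.016. Ndufs8, a core Q module subunit with 6 probe sets, was singled out after its values were seen. Its dimmest probe set, 1434212_at, had signals of 147, 100.4 and 56.4 on heterozygous 1, 3 and 5 and 201, 148 and 186 on knockout 2, 4 and 6, so that all knockouts lay above all heterozygotes. It differed by 0.79 ± 0.30 (SE) on the log2 scale (limma, with unadjusted p = 0.0305, adjusted p = 1), the only one of the 42 with an unadjusted p under 0.05 or without overlap, where 0.511% and 3.68% of all probe sets were. The brightest Ndufs8 probe set, 1455283_x_at, had signals of 5127, 4439 and 6766 in heterozygotes and 4729.6, 5779 and 6264 in knockouts and a difference of 0.051, and the other 4 gave differences between -0.16 and 0.089. On the dim probe set heterozygous 5 was the lowest array, and on the bright one it was the highest. Ndufab1 also had probe sets in disagreement. Its dimmest, 1435934_at, had 71.2, 124 and 162 in heterozygotes and 102, 164 and 422 in knockouts, a log2 difference of 0.70 against -0.025 for its brightest, and rested on knockout 6.

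Promoters of the members were searched for the letters bound by factors that are known to drive respiratory genes, since the members moved together across arrays. RefSeq windows of 300 bases on the mouse assembly GRCm38.p6, 250 before and 50 after the start site, were at hand for 39 of the 44 members. Both strands were searched. The letters GCGCANGCG, as bound by Nrf1, stood in windows of 8 of the 39 (Ndufa5, Ndufa6, Ndufa8, Ndufaf4, Ndufaf5, Ndufb10, Ndufb4 and Ndufs5) and in 6.25% of all 32851 windows, or 7.03% of all genes with a window. The letters AAGATGGCG, as bound by Yy1, stood in 5 of the 39 (Ndufa9, Ndufaf8, Ndufc1, Ndufs4 and Ndufs7), against 1.4% of windows, or 1.64% of genes. All 5 matches began between 10 and 35 bases after the start site. The letters CCGGAAGT of ETS factors such as Gabpa stood in that of Ndufs3 alone (3.89% of windows, 4.31% of genes). The letters TCAAGGTCA of Esrra stood in none (0.423% of windows, 0.466% of genes). In windows of genes of complexes II to V, 26 of which were at hand, the Nrf1 letters stood in 11, those of Yy1 in 2, of ETS factors in 3 and of Esrra in 2. Whether complex I differed from them was not tested. No match of one factor overlaps that of another in the windows of the members, and a match is a description of the sequence and not a site of binding.

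A stretch of 120 bases upstream of the start site is shown for 3 members whose Nrf1 letters, in capitals, lie there. The stretch of Ndufa8 ends next to the start site, and those of Ndufaf4 and Ndufs5 end further upstream. Ndufa8 and Ndufaf4 were described above for their spread and for their p, and Ndufs5 is a proximal subunit that read 4176, 4087 and 5206 in heterozygotes and 3857, 4925 and 5333 in knockouts. The sequences are from RefSeq on GRCm38.p6, 5′ to 3′ on the strand of the gene.
Ndufa8 promoter, chr2:36049339-36049458 (- strand): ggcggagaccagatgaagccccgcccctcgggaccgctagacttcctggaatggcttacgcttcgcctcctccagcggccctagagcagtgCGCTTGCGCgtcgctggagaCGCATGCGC
Ndufaf4 promoter, chr4:24897914-24898033 (+ strand): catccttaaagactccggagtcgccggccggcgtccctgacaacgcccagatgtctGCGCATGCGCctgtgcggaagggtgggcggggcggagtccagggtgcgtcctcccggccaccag
Ndufs5 promoter, chr4:123718221-123718340 (- strand): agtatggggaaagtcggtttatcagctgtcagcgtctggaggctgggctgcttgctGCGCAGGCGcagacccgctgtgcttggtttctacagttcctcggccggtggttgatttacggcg
The first match begins 29 bases before the start site in Ndufa8, where a second abuts the start, 113 in Ndufaf4, where both strands match, and 98 in Ndufs5. All 3 genes were higher on knockout 6 than on knockout 2, as were all 43 tested members with or without these letters. The part of Nrf1 in the array pattern was not tested. Nrf1 itself was dim, with 82.6, 134 and 118 in heterozygotes and 99.9, 106 and 260.3 in knockouts, and did not pass (limma, log2 difference 0.32 ± 0.35 (SE), adjusted p = 1).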

How the data were processed

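Gene expression was measured on Affymetrix mouse 430 2.0 arrays in 6 thyroid RNA samples, labelled by NuGEN's Ovation method per the labels' protocols. The authors deposited a linear intensity for each probe set, made with GCOS per the submitters' processing notes, with version and settings not stated there. The trimmed mean (2% at each end) was 500.002 on each array, so the values had been scaled, and a shift common to most transcripts would not show. Signals were put on a log2 scale with a pseudocount of 16.7, their 25th percentile, so fold changes of dim genes are understated. The 64 control probe sets were left out, and 27022 probe sets above the 40th percentile of the mean log2 value, a signal of 43.5, were tested with limma 3.58.1 in R 4.3.3 (lmFit, eBayes with a trend, Benjamini-Hochberg adjustment over all tested, threshold 0.05). The other tool was Welch's test, as a count. Precision is limited by 3 arrays per group.

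The members and gene lists were chosen with earlier results of these data known. Lists were described by counts and medians without a test. Named with values were the markers Ndufa9, Ndufs1 and Ndufv1, members without overlap of the groups, and the 5 of smallest p in each direction. Further ones were the 4 brightest, dimmest and most variable, those whose further probe sets differed in sign by at least 0.3, and Ndufa4 and Ndufa4l2. Alternatives were cyclic loess or quantile normalization, pseudocounts 0.25 and 4 times as large, no filter and one at the 60th percentile, eBayes with robust fitting or no trend, array weights, each array left out and averaged probe sets.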

Additional observations from a re-analysis of the deposited data

How the results depend on the processing

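The number of members past the threshold was 0 in limma under every alternative run (2 normalizations, a smaller and a larger pseudocount, a laxer and a stricter filter, 2 further variance models, weighted arrays and each array removed), and the number of all probe sets past it was 0 in these and by the other tool. The other tool had 283 probe sets at an unadjusted p under 0.05. The median log2 difference of the members was 0.023 and lay between -0.067 and 0.12 with an array left out. The sign of single members was less stable. With array weights it turned for Ndufab1 (0.036), Ndufaf7 (0.0028), Ndufaf8 (0.0076), Ndufb1 (0.035) and Ndufv1 (0.070), and with all probe sets of a gene averaged for Ndufab1 (0.16) and Ndufv1 (0.024); the cause was not tested. With 1 array left out in turn the log2 differences ranged over -0.038 to 0.13 for Ndufa4, -0.031 to 0.28 for Ndufa8, -0.014 to 0.20 for Ndufa9, -0.13 to 0.12 for Ndufab1, -0.083 to 0.24 for Ndufaf5, -0.16 to 0.29 for Ndufaf6, -0.17 to 0.026 for Ndufaf7, -0.11 to 0.059 for Ndufaf8, -0.20 to 0.15 for Ndufb1, -0.055 to 0.14 for Ndufb10, -0.091 to 0.028 for Ndufb11, -0.073 to 0.21 for Ndufs1, -0.067 to 0.10 for Ndufs3, -0.24 to 0.037 for Ndufs7 and -0.11 to 0.11 for Ndufv1. No paired analysis was run because the labels do not say whether heterozygous and knockout arrays form pairs.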

Other observations

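The size of the swing between arrays depended on which probe set of a gene was read. For 22 genes the ratio of the highest to the lowest array was compared between the brightest and the next brightest probe set, and the brightest had the smaller ratio in 20, the exceptions being Ndufa3 and Ndufs4. Among the 19 genes with both mean signals above 1000, this held for 17, with median ratios of 1.34 and 1.47. For Ndufa5 the ratio was 1.20 at a mean signal of 8009 and 1.32 at 5242, and for Ndufb6 it was 1.13 at 7385 and 1.33 at 4666. The cause was not tested. The brightest probe set is the one reported for each member above.

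Enzymes that share the ubiquinone pool with complex I showed the array pattern too. Of 9 measured genes for such enzymes and for ubiquinone synthesis, 7 had the higher knockout mean, with a median of 0.10, and none passed (limma). Their median deviation was -0.081, -0.30 and 0.23 on heterozygous 1, 3 and 5 and -0.26, 0.16 and 0.23 on knockout 2, 4 and 6. Coq9, a ubiquinone synthesis protein, read 2987, 2584 and 4224 in heterozygotes and 2393, 3713 and 4496 in knockouts. Etfdh, which passes electrons from fatty acid oxidation to ubiquinone, read 3684, 3244 and 4704 in heterozygotes and 3090.1, 4772 and 5079 in knockouts. Both were lowest on knockout 2 and highest on knockout 6, within 1 genotype. Of the 9 genes, 6 were highest on knockout 6. The lowest array was knockout 2 for 4, heterozygous 3 for 3, and heterozygous 1 and knockout 4 for 1 each. Sqor, which oxidises sulphide, had the smallest p of the list, at 2216 ± 286 and 2442 ± 199.9 (limma, log2 difference 0.14 ± 0.12 (SE), adjusted p = 1).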
